A study of Mus musculus with 9 samples.

Results

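The genes described here are 8 that are used as signs of a fetal-like, regenerative state of the intestinal epithelium or as readouts of the transcriptional coactivator YAP: Ly6a, Anxa1, Anxa2, Anxa3, Il1rn, Clu, Ccn1 and Ccn2. They were taken by name, through GENCODE release M21, from a table of 57180 genes, and all 8 had a row. The table holds raw RNA-seq read counts of Lgr5-GFP+ cells sorted from mouse small intestine, in 3 groups of 3 libraries. The KO day 4 and KO day 3 groups are labelled KANSL1-KO. Those mice carried Lgr5-EGFP-CreERT2 and Kansl1 f/f, that is, loxP-flanked alleles of the gene for KANSL1, a scaffold protein of the NSL histone acetyltransferase complex, and were given tamoxifen on each of 4 or 3 days. The control group is labelled KANSL1-WT and was given corn oil. The labels do not say whether control mice carried the floxed alleles or Cre, nor whether the libraries of a group came from separate animals. Genotype and tamoxifen go together in every comparison with controls and cannot be told apart, and p-values measure the spread between these libraries, which may be technical. The Cre transgene acts in cells that express Lgr5, the crypt base stem cells. Alleles of this kind are known to be silent in part of the crypts, and only GFP+ cells were sorted.

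After injury, crypt cells of the adult mouse intestine can switch off the stem cell program and take up genes of the fetal epithelium. This state has been described with high Ly6a (Sca-1), annexins, Il1rn and Clu, and with activity of YAP, which enters the nucleus when the Hippo kinases LATS1 and LATS2 do not phosphorylate it. In the nucleus YAP and its relative TAZ bind DNA through TEAD factors. The genes Ccn1 and Ccn2, which encode secreted matricellular proteins, are among the most used targets of YAP and TEAD in many cell types. The same genes also respond to other factors, and several of the 8, including Ly6a, Il1rn and the annexins, are expressed in blood cells as well.

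Promoter stretches are shown for Ccn1, which fell at KO day 4, and for Il1rn and Anxa2, which rose, so that the DNA before genes of either direction can be set side by side. The sequences are those of RefSeq on GRCm38.p6, 5′ to 3′ on the gene's own strand, and end before the first annotated exon. The first start of each gene is used. Of the 8 genes, 4 had a window in that table, and for Anxa1 the window lay within annotated exons, so none of it is printed. Capitals mark matches to 3 motifs searched on both strands: GGAATG, the core bound by TEAD factors (CATTCC on the other strand), TGANTCA, the core bound by AP-1, and TATAAA, the TATA box. The Il1rn stretch is chr2:24336610-24336852 (plus strand), that of Anxa2 chr9:69453433-69453619 (plus strand) and that of Ccn1 chr3:145649986-145650235 (minus strand).
Il1rn: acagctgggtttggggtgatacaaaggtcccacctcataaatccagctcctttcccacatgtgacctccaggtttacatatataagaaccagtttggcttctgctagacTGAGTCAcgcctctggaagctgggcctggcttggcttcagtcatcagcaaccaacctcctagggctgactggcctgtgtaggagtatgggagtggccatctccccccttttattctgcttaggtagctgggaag
Anxa2: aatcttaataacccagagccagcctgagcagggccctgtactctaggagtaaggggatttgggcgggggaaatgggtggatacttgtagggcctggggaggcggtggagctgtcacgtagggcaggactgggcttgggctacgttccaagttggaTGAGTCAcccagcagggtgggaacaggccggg
Ccn1: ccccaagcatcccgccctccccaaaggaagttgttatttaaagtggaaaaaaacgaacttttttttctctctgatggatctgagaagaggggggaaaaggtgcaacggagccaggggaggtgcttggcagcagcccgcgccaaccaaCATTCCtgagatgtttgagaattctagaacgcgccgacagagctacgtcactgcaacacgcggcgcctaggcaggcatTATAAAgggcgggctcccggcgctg
The Ccn1 stretch held the TEAD core 103 bases before the RefSeq start and a TATA box 25 bases before it. Il1rn and Anxa2 each held an AP-1 core, 141 and 95 bases before the start, and no TEAD core in the 250 bases before it. A TATA box of Anxa2, 17 bases before the RefSeq start, lies within an annotated exon and is not shown, and 1 window of a later Il1rn start held a TEAD core 24 bases before that start. The window of Anxa1, which also rose, is not printed but held a TEAD core 236 bases and a TATA box 32 bases before the start. Among all 32851 windows, 12.6% held GGAATG, 6.75% held TGANTCA and 12.4% held TATAAA in the 250 bases before the start. A match is a description of letters and was not tested for binding.

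Library totals were 11174583 to 16943055 counts in KO day 4, 8400458 to 21484679 in KO day 3 and 12164479 to 17913787 in control libraries. Mitochondrial transcripts took 66.9% to 72.1% of counts in KO day 4, 19.0% to 32.5% in KO day 3 and 16.4% to 25.8% in control libraries. KO day 4 replicate 3 and KO day 3 replicate 1 stood apart from their own groups, with correlations of log2 level across genes of 0.814 and 0.821, and of 0.882 and 0.878, against 0.889 to 0.966 between the other pairs of a group. Kansl1 itself was at 2.93, 5.08 and 8.95 CPM in libraries labelled KO day 4, 2.81, 2.99 and 2.55 in KO day 3 and 4.46, 11.4 and 9.83 in controls, and did not pass the edgeR test in either comparison (adjusted p = 0.34 at day 4 and 0.12 at day 3). The deleted exons are not given in the labels and reads of remaining exons are counted, so this level does not check the deletion, and the groups are called by their labels throughout. Markers of intestinal stem cells, such as Lgr5 and Olfm4, summed to 4930, 4356 and 1894 CPM in KO day 4, 7371, 9998 and 8147 in KO day 3 and 9692, 9792 and 10020 in control libraries, with all 8 markers above 0 in each group. By the edgeR test 5 of the 8 were lower and 0 higher at KO day 4 against control, beside 11.5% and 11.1% of all tested genes. Against KO day 3, 4 were lower at KO day 4 and 0 higher, beside 6.03% and 6.52%. None passed at KO day 3 against control.

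Levels below are CPM, that is, counts scaled to a common library size, here the library size scaled by edgeR's trimmed mean of M values (TMM), and differences are log2 fold changes with their standard error (SE), called where the edgeR quasi-likelihood test gave an adjusted p under 0.05 over 13405 tested genes. Of the 8 genes, 7 passed the filter on low counts. Ccn2 did not, and Il1rn and Anxa1 passed only because of the KO day 4 libraries in which they are high. Of the other 5 genes, Ly6a, Anxa2 and Anxa3 rose at KO day 4 against control, Ccn1 fell and Clu did not pass, beside 22.5% of all tested genes called in that comparison (11.1% higher, 11.5% lower). Il1rn and Anxa1 were also called higher, but without a high day 4 level they would not have been tested, so they add no support to that count. None of the 7 passed at KO day 3 against control by edgeR, beside 0.44% of all tested genes (0.142% higher, 0.298% lower). Of the 7, 4 were at an unadjusted p under 0.05, beside 15.8% of all tested genes, and DESeq2 called 3 higher (Clu, Il1rn and Ly6a), beside 3.01% of the genes to which it gave an adjusted p. Between KO day 4 and KO day 3 the same genes as at day 4 against control were called, 5 higher (Il1rn and Anxa1 with the same limit) and 1 lower, beside 12.5% of all tested genes (6.52% higher, 6.03% lower). Taken by library, all KO day 4 libraries exceeded all controls in 6 of the 7 tested genes, beside 20.6% of all tested genes, and lay below them in Ccn1, beside 26.4%. Il1rn and Anxa1 are among the 6 with the same limit. All KO day 3 libraries exceeded all controls in Ly6a and Clu, beside 12.1%, and lay below them in Ccn1, beside 18%. KO day 4 libraries all exceeded those of KO day 3 in 5 genes (Il1rn and Anxa1 with the same limit), beside 15.8%, and lay below them in Ccn1, beside 17%. Without the 2 libraries that stood apart, 5 were called higher (Il1rn and Anxa1 with the same limit) and 1 lower at KO day 4 against control, beside 14.1% and 16% of all genes tested in that fit. In the same fit 1 was higher and 0 lower at KO day 3 against control, beside 1.39% and 3.34%. Between the KO days 4 were higher (Il1rn and Anxa1 among them) and 0 lower, beside 5.28% and 4.93%. These libraries are bulk RNA, so fewer cells of a type and less RNA per cell cannot be told apart.

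**Figure D1:**
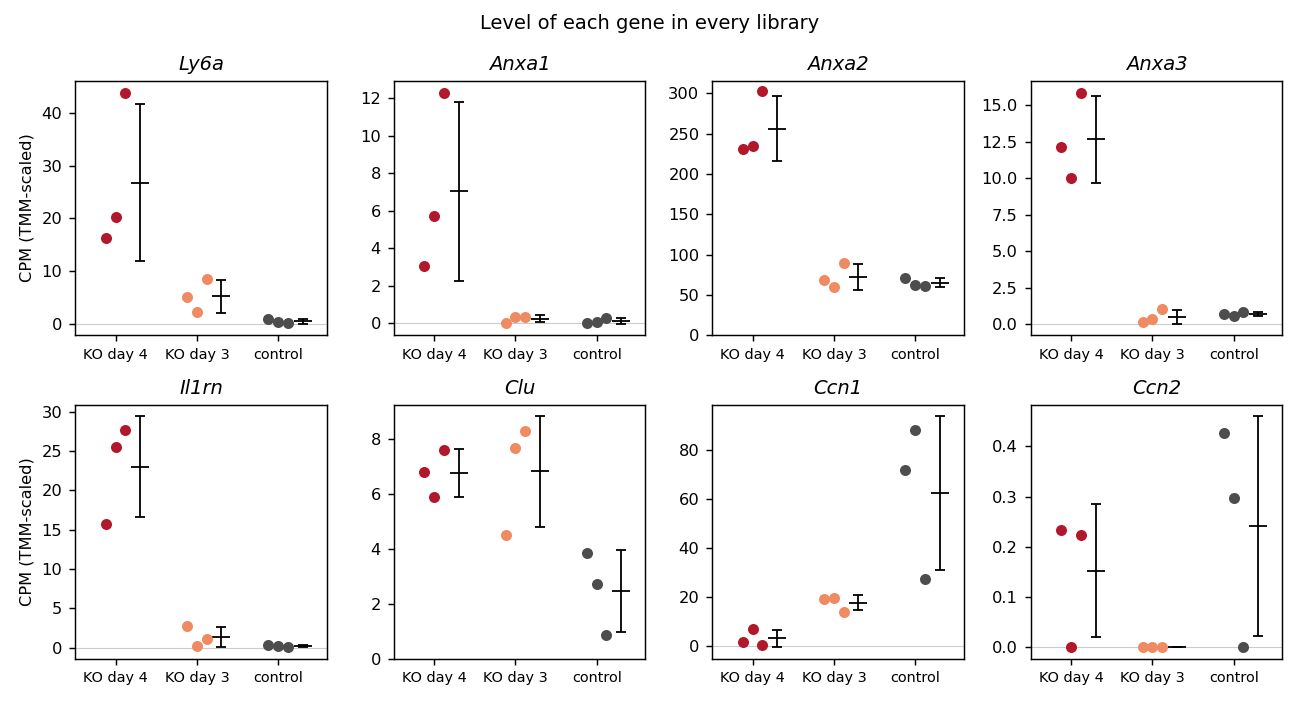
Level of each of the 8 genes (y axis, CPM of TMM-scaled library size, scales differ) in each library of KO day 4, KO day 3 and control. Points are libraries in order of replicate number and the bar beside them is the mean ± SD of 3. In 6 panels every KO day 4 library is above every control, in Ccn1 every one is below, and Ccn2 stays under 0.43 CPM.

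Il1rn (ENSMUSG00000026981, chromosome 2, 24336853 to 24351494, plus strand, GRCm38) encodes the IL-1 receptor antagonist, a secreted protein that occupies the IL-1 receptor without signalling. It was at 15.7, 25.6 and 27.7 CPM in the KO day 4 libraries, 2.73, 0.217 and 1.10 CPM in KO day 3 and 0.349, 0.198 and 0.0897 CPM in controls. All 3 KO day 4 libraries lay above every other library, while KO day 3 replicate 2 lay inside the control range. The log2 fold change was 6.69 at KO day 4 against control (SE 0.78, edgeR adjusted p = 0.00052), the largest of the 7 genes. The day 3 difference from control was 2.50 (SE 0.77, edgeR adjusted p = 0.15), and 1.63 without the 2 libraries that stood apart (adjusted p = 0.20). KO day 4 exceeded KO day 3 by 4.19 (SE 0.68, edgeR adjusted p = 0.0053). The KO day 4 level rests on 419 reads in all and the KO day 3 level on 68, against 17 in controls. Its CPM reached the filter's level in all 3 KO day 4 libraries, in 2 of KO day 3 and in no control.

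Clu (ENSMUSG00000022037, chromosome 14, 65968483 to 65981547, plus strand) encodes clusterin, a secreted chaperone, and in mouse crypts marks rare cells that expand after damage. Its levels were 6.79, 5.88 and 7.61 CPM in KO day 4, 4.52, 7.67 and 8.29 CPM in KO day 3 and 3.84, 2.71 and 0.853 CPM in control libraries. Every library of either KO group was above every control library, and the KO groups overlapped each other. The differences from control were alike in size at both days, 1.44 at KO day 4 (SE 0.49, edgeR adjusted p = 0.056) and 1.47 at KO day 3 (SE 0.48, edgeR adjusted p = 0.17), and neither passed. KO day 4 minus KO day 3 was -0.02 (SE 0.48, 95% interval -0.96 to 0.92, edgeR adjusted p = 0.98), an interval that allows a change in either direction. The day 4 value sits at the threshold: it passed without control replicate 1 (1.90, edgeR adjusted p = 0.046) and without KO day 3 replicate 1 (1.43, adjusted p = 0.047), as it did with DESeq2 (adjusted p = 0.016) and voom (adjusted p = 0.033). With scaling by library size alone it turned to -0.39, beside a median of all tested genes of -1.95.

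Ly6a (ENSMUSG00000075602, chromosome 15, 74994877 to 74998031, minus strand) encodes Sca-1, a small protein anchored to the cell surface by a lipid, and the most used mark of the fetal-like state in mouse. It was at 16.3, 20.2 and 43.9 CPM in KO day 4, 5.03, 2.17 and 8.46 CPM in KO day 3 and 0.970, 0.363 and 0.0897 CPM in control libraries. The 3 groups did not overlap, with KO day 3 in between. The log2 fold change at KO day 4 against control was 5.77 (SE 0.75, edgeR adjusted p = 0.00076). At KO day 3 against control it was 3.43 (SE 0.70, edgeR adjusted p = 0.065), and it passed without KO day 4 replicate 3, which enters only through the shared spread (3.43, adjusted p = 0.037), and without the 2 libraries that stood apart (3.46, adjusted p = 0.033).

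The KO day 4 level of Ly6a exceeded that of KO day 3 by 2.34 (SE 0.62, edgeR adjusted p = 0.033). That call was lost when KO day 3 replicate 1 was left out (2.30, adjusted p = 0.075), likewise KO day 3 replicate 2 (1.96, adjusted p = 0.096), KO day 4 replicate 2 (2.50, adjusted p = 0.061) or KO day 4 replicate 3 (1.79, adjusted p = 0.11), and without both libraries that stood apart (1.76, adjusted p = 0.14). Scaling by library size alone gave 0.75 (edgeR adjusted p = 0.26), beside a median of all tested genes of -1.54. Ly6a has near-identical relatives, with transcripts 96.6% (Ly6c1), 94.3% (Ly6c2) and 92.6% (Ly6i) identical over 263, 245 and 336 bases. The highest count of Ly6c1 in a library was 11 and the others had none, and how the authors' counting treated reads shared between Ly6a and these copies is uncertain.

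**Figure D2:**
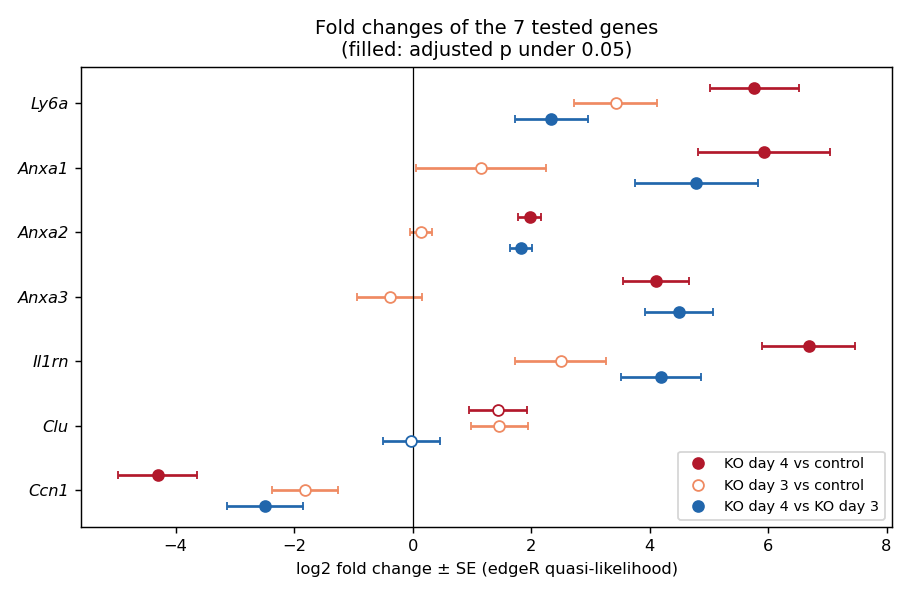
Log2 fold change (x axis, ± SE) of the 7 tested genes for KO day 4 and KO day 3 each against control and for KO day 4 against KO day 3. Filled points passed the edgeR test. Il1rn, Anxa1, Ly6a and Anxa3 lie above 4 at KO day 4 against control, Ccn1 lies at -4.30, and no KO day 3 point against control is filled.

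Annexins are proteins that bind phospholipid membranes when calcium rises. Anxa2 (ENSMUSG00000032231, chromosome 9, 69453620 to 69491795, plus strand), whose product pairs with the S100A10 protein at the cell cortex, was at 231, 235 and 303 CPM in KO day 4, 67.98, 59.1 and 89.6 CPM in KO day 3 and 71.3, 62.8 and 61.5 CPM in control libraries. KO day 4 stood clear of both other groups, which overlapped. It had the smallest standard errors of the 7 genes, with 1.97 between KO day 4 and controls (SE 0.19, edgeR adjusted p = 0.00020), 0.15 between KO day 3 and controls (SE 0.18, 95% interval -0.21 to 0.51, edgeR adjusted p = 0.77) and 1.83 between KO day 4 and KO day 3 (SE 0.19, edgeR adjusted p = 0.00088). With scaling by library size alone the difference from control at day 4 was 0.07 (edgeR adjusted p = 0.75), beside a median of all tested genes of -1.95. The difference from KO day 3 was then 0.28 (edgeR adjusted p = 0.24), beside a median of -1.54.

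Anxa3 (ENSMUSG00000029484, chromosome 5, 96793339 to 96845966, plus strand) was at 12.2, 10.01 and 15.9 CPM in KO day 4, 0.170, 0.346 and 1.03 CPM in KO day 3 and 0.737, 0.594 and 0.853 CPM in control libraries. The day 3 libraries spread around the controls on both sides, and the day 4 libraries were all at least 10.01 CPM. The log2 fold change was 4.11 between KO day 4 and controls (SE 0.56, edgeR adjusted p = 0.00092), -0.38 between KO day 3 and controls (SE 0.55, edgeR adjusted p = 0.80) and 4.50 between KO day 4 and KO day 3 (SE 0.57, edgeR adjusted p = 0.0022). The day 3 difference from control depended on single libraries: it was -1.38 without KO day 3 replicate 3 (edgeR adjusted p = 0.32), -0.05 without replicate 1 (adjusted p = 0.98) and -0.11 without replicate 2 (adjusted p = 0.96).

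Anxa1 (ENSMUSG00000024659, chromosome 19, 20373428 to 20390944, minus strand), which encodes a protein released in the resolution of inflammation, had the lowest counts of the 7 over all libraries. In KO day 4 alone Ccn1 had fewer reads (61 in all, against 117 of Anxa1). There were 26, 36 and 55 reads in KO day 4, 0, 8 and 9 reads in KO day 3 and 0, 2 and 6 reads in control libraries, that is 3.05, 5.72 and 12.3 CPM in KO day 4, 0, 0.346 and 0.319 CPM in KO day 3 and 0, 0.0660 and 0.269 CPM in controls. KO day 4 lay above both other groups, which overlapped. Only the KO day 4 libraries of Anxa1 reached the filter, so a difference at day 4 was needed for it to be tested at all. With that limit, the log2 fold change was 5.94 at KO day 4 against control (SE 1.11, edgeR adjusted p = 0.0042) and 4.79 against KO day 3 (SE 1.04, edgeR adjusted p = 0.016). The second call was lost without KO day 3 replicate 2 (5.12, adjusted p = 0.053) and without KO day 4 replicate 3 (4.12, adjusted p = 0.052). The Anxa1 difference between KO day 3 and controls was 1.15 (SE 1.10, edgeR adjusted p = 0.68). It was 0.58 without control replicate 1 (adjusted p = 0.90) and 2.58 without control replicate 3 (adjusted p = 0.53), and the day 4 difference from control was 7.35 without control replicate 3 (adjusted p = 0.0090). The control level rests on 8 reads in all.

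Ccn1 (ENSMUSG00000028195, chromosome 3, 145646976 to 145649981, minus strand), the matricellular protein once named CYR61 that binds integrins, ran opposite to Il1rn, Ly6a and the annexins. It was at 1.64, 7.15 and 0.447 CPM in KO day 4, 19.3, 19.7 and 14.1 CPM in KO day 3 and 71.7, 88.0 and 27.4 CPM in control libraries. The 3 groups did not overlap, with KO day 4 lowest, KO day 3 in between and controls highest. The replicates varied more than those of Anxa2, with KO day 4 replicate 2 many times above replicate 3 and control replicate 3 well under the other controls. The KO day 4 levels of Ccn1 rest on only 14, 45 and 2 reads, against 1849, 2665 and 610 in controls.

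The log2 fold change of Ccn1 at KO day 4 against control was -4.30 (SE 0.66, edgeR adjusted p = 0.0016) and stayed between -6.16 and -3.88 over the alternatives, with adjusted p of at most 0.020. KO day 3 against control gave -1.82 (SE 0.56, edgeR adjusted p = 0.15). KO day 4 minus KO day 3 was -2.48 (SE 0.64, edgeR adjusted p = 0.030). This last call was lost without KO day 3 replicate 1 (-2.42, adjusted p = 0.057), KO day 3 replicate 2 (-2.41, adjusted p = 0.078), KO day 4 replicate 1 (-2.13, adjusted p = 0.079) or KO day 4 replicate 3 (-2.06, adjusted p = 0.072), and without both libraries that stood apart (-2.01, adjusted p = 0.088). It was also lost with voom (adjusted p = 0.21) and with only the 2 groups compared in the fit (adjusted p = 0.059).

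Ccn2 (ENSMUSG00000019997, chromosome 10, 24595442 to 24598683, plus strand), once named CTGF, was near the detection limit in these cells. Its reads numbered 2, 0 and 1 in KO day 4, 0, 0 and 0 in KO day 3 and 11, 9 and 0 in control libraries. The 3 groups overlapped at 0, and the gene was not tested. In the fit with no filter on low counts its difference had an edgeR adjusted p of 0.82 at KO day 4 and 0.29 at KO day 3 against control. Ccn2 also shares 665 exon bases with Gm15270 on the opposite strand, which had 0 to 4 reads in a library, and since the strand setting of the counting is not given in the sources used here their reads cannot be told apart.

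Compared per kilobase of exon, the order of the levels differed between groups. In KO day 4 libraries Anxa2 led with 68.7 ± 10.9 CPM per kilobase, followed by Ly6a with 22.2 ± 12.4, Il1rn with 4.16 ± 1.16, Anxa3 with 3.48 ± 0.816, Anxa1 with 2.41 ± 1.64, Clu with 1.97 ± 0.252 and Ccn1 with 1.53 ± 1.77 (SD, n = 3). Neighbours from Il1rn down to Ccn1 lay within 1 SD of each other. In KO day 3 libraries the order was Anxa2 (19.4 ± 4.20), Ccn1 (8.76 ± 1.56), Ly6a (4.33 ± 2.62) and Clu (1.99 ± 0.588), of which Ly6a and Clu lay within 1 SD of each other, and then Il1rn (0.243 ± 0.230), Anxa3 (0.141 ± 0.124) and Anxa1 (0.0762 ± 0.0661), neighbours that also lay within 1 SD of each other. In controls Ccn1 led with 30.9 ± 15.5, Anxa2 followed with 17.5 ± 1.43, within the spread of Ccn1, and the other genes were below 0.72 CPM per kilobase. Among 13219 tested genes with an exon length, the level per kilobase of Il1rn had a percentile rank of 63.4 in KO day 4, 12.3 in KO day 3 and 1.60 in control libraries. Ly6a ranked at percentile 89.6 in KO day 4, 64.3 in KO day 3 and 15.6 in controls, and Ccn1 at 40.2 in KO day 4, 77.1 in KO day 3 and 92.2 in controls. Anxa2 ranked high throughout, at 96.0 in KO day 4, 87.4 in KO day 3 and 87.1 in controls.

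Likeness of patterns over the 9 libraries was measured as the root mean square difference of log2 CPM, each gene centred on its own mean over the 9 libraries, across 11402 genes with a usable symbol. The closest pair among the 7 was Anxa2 and Clu at 0.96 log2 units, and Il1rn and Ly6a were at 1.17. By rank over the other genes compared, Clu was only number 4011 for Anxa2 and Anxa2 number 2467 for Clu, so many other genes were closer to each. Il1rn was number 39 for Ly6a, Ly6a number 81 for Il1rn, Anxa3 number 20 for Anxa1 and Anxa1 number 299 for Anxa3. Nearest to Anxa2 were Lmna (0.135), Krt18 (0.184) and Kdm6b (0.190). Nearest to Il1rn were Basp1 (0.548), Il10ra (0.572) and Grap2 (0.621), to Ly6a were Msn (0.650), Rab37 (0.756) and Pirb (0.809), and to Anxa3 were Hacd4 (0.491), Aldh1l2 (0.563) and Stk10 (0.641). Anxa1 was nearest to Bmx (0.809), Enah (0.829) and Abhd15 (0.912), Clu to Bzw1 (0.471), Hist1h3i (0.492) and Ube2d2a (0.506), and Ccn1 to Lysmd1 (0.634), Cand2 (0.698) and Platr25 (0.722). These values describe the 9 libraries and carry no test.

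Other genes of the same programs were read from lists. Over all tested genes, 11.1% were called higher and 11.5% lower at KO day 4 against control. At KO day 3 against control these shares were 0.142% and 0.298%. Of 12 other fetal-like and regenerative genes 7 were tested, 1 of them (Basp1) only because of its KO day 4 libraries. Of the other 6, 4 rose at KO day 4 against control and none fell, and Basp1 was called higher too (over all 7, median log2 fold change 2.26, against -0.06 over all tested genes). The 5 genes called were the keratin Krt7 (1.11, SE 0.18, edgeR adjusted p = 0.0022), the EGF receptor ligand Areg (4.23, SE 0.70, edgeR adjusted p = 0.0024), the membrane protein Emp1 (2.26, SE 0.38, edgeR adjusted p = 0.0024), Basp1 and the urokinase receptor Plaur. Basp1 had 60 reads in KO day 4 and none in the 3 controls, which makes it at least 81.2-fold higher against a floor of 3 counts over the control group. The list's median is the value of Emp1 and is the same with Basp1 at that bound. Krt7 was at 235, 232 and 297 CPM in KO day 4, 134, 104 and 127 in KO day 3 and 140, 96.2 and 117 in control libraries. Like Anxa2, Krt7 was clear of both other groups at day 4 alone. None of the 7 passed at KO day 3 against control (median 0.05). Scaling by library size alone gave 3 of these genes higher and 3 lower at day 4, beside 2.15% of all genes called higher and 80.3% lower, while 6 of 7 stayed above the median of all genes.

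Of 23 other YAP and TEAD targets 13 were tested and none passed at either day (medians 0.69 at KO day 4 and 0.26 at KO day 3 against control). Of all tested genes, 22.5% were called at KO day 4 and 0.44% at KO day 3 against control. Without the 2 libraries that stood apart the medians were 0.29 at KO day 4 and -0.09 at KO day 3. At KO day 4 library size alone gave a median of -1.33 with 5 called lower, and 1 gene (Fjx1) was called higher with mitochondrial transcripts left out. The most abundant of them were Gadd45a, a growth arrest gene (0.38, SE 0.38, edgeR adjusted p = 0.50 at day 4), and the kinase Nuak2 (-0.42, SE 0.36, edgeR adjusted p = 0.43). Ankrd1, a widely used target, had no read in any library. Of 18 Hippo kinases, adaptors, coactivators and TEAD factors 16 were tested. At KO day 4 against control 5 of these rose and none fell (median 0.49), beside 11.1% of all tested genes called higher and 11.5% lower. Those named are the kinase activator Wwc1 (1.20, SE 0.23, edgeR adjusted p = 0.0049), the kinase Lats1 (1.08, SE 0.23, edgeR adjusted p = 0.0079), the DNA binding partner Tead1 (1.48, SE 0.37, edgeR adjusted p = 0.016) and the kinase adaptor Mob1a (0.66, SE 0.17, edgeR adjusted p = 0.019). Scaling by library size alone turned all 4 to values below 0, and it called 15 of the 16 lower, beside 80.3% of all genes called lower and a median of -1.95 over all genes. Yap1 and Wwtr1, which encode YAP and TAZ, were at 35.4 ± 17.2 and 2.96 ± 1.60 CPM in KO day 4, 42.8 ± 7.33 and 2.54 ± 0.583 in KO day 3 and 45.2 ± 3.91 and 2.08 ± 0.446 in control libraries (SD, n = 3), and neither passed the test.

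**Figure D3:**
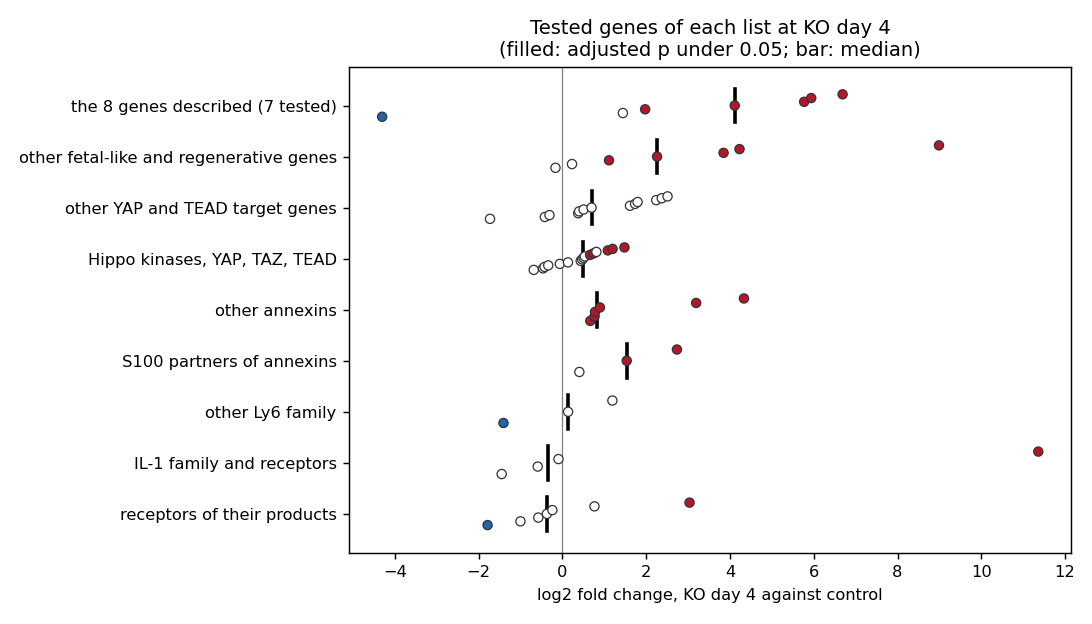
Log2 fold change at KO day 4 against control (x axis) of the tested genes of each list, with the 8 genes described in the top line. Filled points passed the edgeR test (red higher, blue lower) and the bar is the list's median. All 6 other annexins are filled and none of the 13 other YAP and TEAD targets is, beside 22.5% of all tested genes called.

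The 6 tested of 9 other annexins all rose at KO day 4 against control (median 0.84), beside 11.1% of all tested genes called higher. None passed at KO day 3 against control, beside 0.44% called. Without the 2 libraries that stood apart 5 of these annexins were called higher at KO day 4 and 1 (Anxa6) at KO day 3, beside 14.1% and 1.39% of all genes. Anxa5 was higher by 3.19 (SE 0.36, edgeR adjusted p = 0.00042), Anxa6 by 4.33 (SE 0.58, edgeR adjusted p = 0.00085), Anxa4 by 0.78 (SE 0.17, edgeR adjusted p = 0.0077) and Anxa11 by 0.66 (SE 0.15, edgeR adjusted p = 0.012). With scaling by library size alone Anxa5 and Anxa6 stayed higher and the other 4 were called lower, beside 2.15% and 80.3% of all genes. All 6 remained above the median of all genes. Of the S100 proteins that bind annexins, 3 of 4 were tested and 2 rose, S100a6 (2.73, SE 0.40, edgeR adjusted p = 0.0013) and S100a11 (1.53, SE 0.25, edgeR adjusted p = 0.0019). Neither was called higher with scaling by library size alone, beside 2.15% of all genes called higher.

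Of 12 other Ly6 family genes 3 were tested and Lypd8, a secreted antibacterial protein of the gut lining, fell (-1.41, SE 0.15, edgeR adjusted p = 0.00028). Over all tested genes, 11.1% were called higher and 11.5% lower at KO day 4 against control, and 0.142% and 0.298% at KO day 3. Of 14 IL-1 family and receptor symbols 11 were in the table and 4 tested. Il1rl1, the IL-33 receptor known from mast cells, was the 1 called, with 891 reads in KO day 4, against 1 in controls (ratio of scaled counts 3616, 95% counting interval 647 to 143000), and it was also called at KO day 3. It reached the filter in 3 libraries of each KO group and in 0 controls. Without a high level in KO libraries Il1rl1 would not have been tested, so its calls add no support. Il1r1, the receptor that the Il1rn product blocks, had no read in KO day 4 or control libraries and 12 in KO day 3. Most of those were in replicate 1, which stood apart (0.937, 0 and 0.0354 CPM in replicates 1, 2 and 3). None of 4 other CCN genes passed the filter. Among 12 receptors for products of the 8 genes, 7 were tested. Lrp8, a receptor for clusterin, rose (3.03, SE 0.54, edgeR adjusted p = 0.0032), and Lrp1, an endocytic receptor, fell (-1.79, SE 0.34, edgeR adjusted p = 0.0049).

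Markers of several other cell types were also higher at KO day 4, and their part in the results was not tested. The 10 mast cell markers summed to 280.1, 514 and 813 CPM in KO day 4, 106, 11.04 and 29.3 CPM in KO day 3 and 0.194, 0.297 and 0.0449 CPM in controls. Against control, 7 of 7 tested markers were called higher at day 4 and 5 at day 3, beside 11.1% and 0.142% of all tested genes. With 15 control reads over all 10 markers, those tested passed the filter only because of KO libraries in which they are high. These counts of calls therefore add no support. In KO day 4 libraries Il1rn, Ly6a, Anxa1 and Anxa2 had the same order as the mast cell sum, replicate 3 over 2 over 1. So had the tuft, lymphocyte, endothelial, Paneth and enteroendocrine sums given below, the enterocyte sum and the mitochondrial share of counts. The stem cell sum ran in the reverse order, and the goblet, macrophage and fibroblast sums followed neither order. In KO day 3 libraries the mast cell sum had replicate 1 over 3 over 2, as had Il1rn and the tuft, lymphocyte, endothelial, macrophage and fibroblast sums. The Paneth, goblet, enteroendocrine, enterocyte and stem cell sums and the mitochondrial share did not follow that order in KO day 3. Ly6a was highest there in replicate 3, and Anxa1 had no read and Anxa3 its lowest level in replicate 1, where the mast cell sum was highest. Clu was lowest in that library as well.

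Tuft cell markers (8 genes) summed to 80.2, 111 and 229 CPM in KO day 4, 13.8, 6.89 and 8.39 in KO day 3 and 4.97, 3.96 and 3.54 in control libraries, and 5 of 6 tested rose at day 4. This count and those below stand beside 11.1% of all tested genes called higher and 11.5% lower at KO day 4 against control. Markers of T and intraepithelial lymphocytes (9 genes) summed to 16.0 to 50.8 CPM in KO day 4, 1.08 to 7.50 in KO day 3 and 0.132 to 0.272 in control libraries, with 6 of 9 at 0 in all KO day 4 libraries. Macrophage, monocyte and dendritic cell markers (9 genes) summed to 18.6 to 49.7 CPM in KO day 4, 12.9 to 19.0 in KO day 3 and 5.03 to 11.8 in control libraries, and 2 of 5 tested rose at day 4. Endothelial markers (6 genes, Cdh5 at 0 in every library) summed to 5.39 to 22.8 CPM in KO day 4, 0.823 to 2.73 in KO day 3 and 0.561 to 1.48 in control libraries. Neutrophil markers S100a8, S100a9, Cxcr2, Csf3r and Retnlg were at 0 in every library. Fibroblast and smooth muscle markers (8 genes, Pdgfra and Myh11 at 0 in every library) summed to 0.318 to 3.98 CPM in KO day 4, 0.606 to 2.39 in KO day 3 and 0.0449 to 1.36 in control libraries. Paneth cell markers (8 genes) summed to 61510 to 81210 CPM in KO day 4, 14410 to 22190 in KO day 3 and 7144 to 19590 in control libraries, and all 8 rose at day 4. Enteroendocrine markers (8 genes) summed to 206 to 314 CPM in KO day 4, 48.1 to 83.5 in KO day 3 and 17.2 to 53.98 in control libraries, with 7 of 8 higher at day 4, and goblet cell markers (7 genes) to 1987 to 3516 CPM in KO day 4, 963 to 1265 in KO day 3 and 751 to 1078 in control libraries, with 4 higher and 1 lower.

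**Figure D4:**
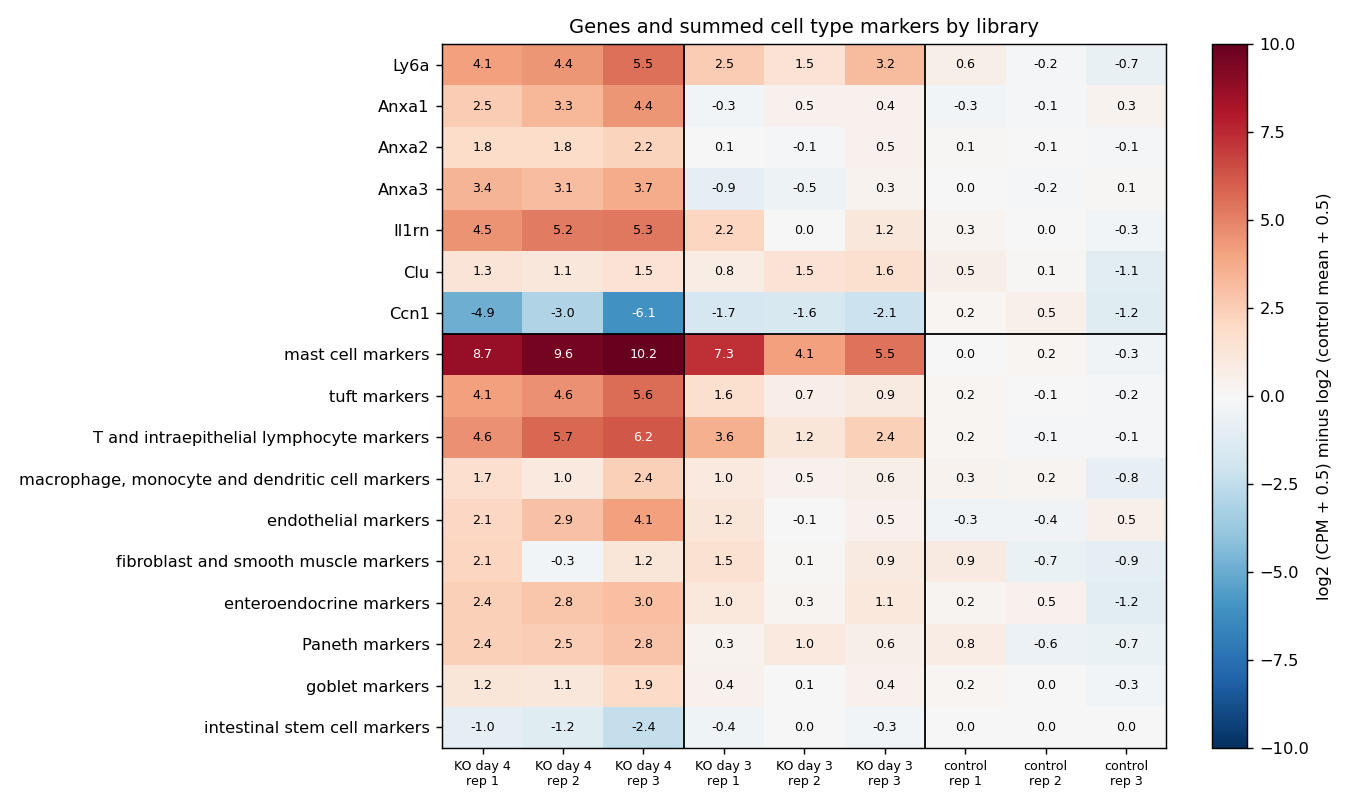
Each cell is the log2 of CPM plus 0.5 in 1 library minus that of the control mean, for the 7 tested genes (top) and the summed markers of 10 cell types (bottom), with KO day 4, KO day 3 and control libraries from left to right. Mast cell markers are highest in KO day 4 replicate 3 and, among KO day 3 libraries, in replicate 1, and Ccn1 and the stem cell markers are lowest in KO day 4 replicate 3.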

How the data were processed

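Values in the deposited table are raw counts of reads, 1 row for each Ensembl gene and 1 column for each of 9 libraries. HISAT2 2.0.4 and GRCm38 are named in the submitters' processing notes. The counter, its strand setting and the annotation release are not given in the sources used here. Genes were named and located by GENCODE M21 (51884 of 57180 identifiers), and 6 columns without values were not used. The 8 genes and all lists were chosen with earlier results of these data known. Counts were fitted with edgeR 4.0.16 in R 4.3.3 (filterByExpr, minimum count 10 and minimum total 15, TMM, all 9 libraries in 1 fit, quasi-likelihood F-test, Benjamini-Hochberg over 13405 genes, threshold 0.05), checked on simulated counts. The simulation gave all genes 1 common dispersion, changed a small part of them at KO day 4 and kept KO day 3 at control means. In that setting the fit called 80% of 4-fold changes, 7% of 2-fold changes and 0.0236% of unchanged genes. The fit of the deposited counts called 3021 genes at KO day 4 against control, so the simulated shares do not give its power. A gene that did not pass can still have changed. An SE is the log2 fold change over the square root of F. Counting intervals are exact binomial at 95% and, like floors of 3 counts, cover counting error only. Libraries within a group differed by more than sampling noise (chi-square over its degrees of freedom, 12.8 to 89.2). Named are all 8 genes, up to 4 called genes per list with the smallest adjusted p at KO day 4 against control (otherwise the 2 most abundant) and the 3 genes most like each of the 8. Plaur, Ankrd1, Fjx1, Yap1, Wwtr1 and Il1r1 fall outside that rule and were named after their values were seen. Near-identical transcripts were found with blastn 2.17.0 (at least 90% over 200 bases). Alternatives were RLE, library size alone, mitochondrial transcripts left out, no filter, a mean CPM of at least 5, DESeq2 1.42.0, voom of limma 3.58.1 with quality weights, only the 2 groups compared, a replicate block, and each library left out. Leaving out the 2 libraries that stood apart was chosen after seeing the data.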

Additional observations from a re-analysis of the deposited data

Results flagged for a closer look

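For 6 of the 7 tested genes the effect differed between the 2 days, by the edgeR test of KO day 4 against KO day 3 (adjusted over all tested genes), beside 12.5% of all tested genes. Il1rn and Anxa1 were tested only because of their high KO day 4 libraries, so they add no support to that count. The log2 difference was 2.34 for Ly6a (edgeR adjusted p = 0.033), 4.79 for Anxa1 (0.016), 1.83 for Anxa2 (0.00088), 4.50 for Anxa3 (0.0022), 4.19 for Il1rn (0.0053) and -2.48 for Ccn1 (0.030). All 3 KO day 4 libraries lay on 1 side of all 3 KO day 3 libraries for each of these 6 genes. Over all tested genes 15.8% lay above in this way and 17% below. Both days share the controls, and days of tamoxifen and time since the first dose cannot be told apart. The differences of Ly6a, Anxa1 and Ccn1 lost the threshold when single libraries were left out. No test for a single outlying library was run on groups of 3.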

How the results depend on the processing

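Over 391 refits of single genes, 344 kept direction and side of the threshold, 17 lost the call, 21 gained one and 9 turned in sign. Those that turned were not called in the reported fit. They were Clu at KO day 4 against control with library size alone (-0.39), Anxa2 at KO day 3 against control with library size alone (-0.21) and without KO day 3 replicate 3 (-0.039, range with a library left out -0.039 to 0.30), and Clu at KO day 4 against KO day 3 with RLE (0.0022), a mean CPM of at least 5 (0.046), DESeq2 (0.0039) and without KO day 3 replicate 2 (0.07), KO day 3 replicate 3 (0.13) or KO day 4 replicate 2 (0.06; range with a library left out -0.25 to 0.13). At KO day 4 against control 4 to 6 of the 8 genes were called higher and 1 lower in every alternative. Library size alone gave 4 higher, beside 2.15% of all genes, and 1 lower, beside 80.3%. DESeq2 gave 6 higher, beside 15.6%, and 1 lower, beside 14.7%. Il1rn and, where tested, Anxa1 are among the higher genes, and they passed the reported filter only because of KO day 4. At KO day 3 against control, where none was called, 1 was higher with library size alone and without the 2 libraries that stood apart, 2 with no filter and with voom, 3 with DESeq2 and 0 to 1 with a library left out, and 1 (Ccn1) was lower with library size alone, no filter and voom. Over all genes library size alone called 0.291% higher and 3.57% lower there, and DESeq2 3.01% and 3.66%. No filter gave 143 higher and 174 lower of 23505 genes, and voom 481 and 942 of 13405. At KO day 4 against KO day 3, 3 were higher with library size alone and with a mean CPM of at least 5 (which leaves Anxa1 and Anxa3 untested) and 3 to 5 with a library left out, while 2 were lower with library size alone, 0 with voom, only the 2 groups compared and without the 2 libraries that stood apart, and 0 to 1 with a library left out. Over all genes library size alone called 1.41% higher and 69.5% lower between the days, and the fit without the 2 libraries 5.28% and 4.93%.

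Library size alone put the median of all genes at -1.95 for KO day 4 against control, -0.39 for KO day 3 against control and -1.54 for KO day 4 against KO day 3, and called 11055 genes at KO day 4 against control, 288 higher and 10767 lower (3021 as reported), 518 at KO day 3 (59 as reported) and 9506 between the days (1682 as reported). At KO day 3 there were 317 calls with no filter, 876 with DESeq2, 1423 with voom, 337 with only the 2 groups compared and 646 without the 2 libraries that stood apart; between the days there were 2879 with DESeq2 and 806 with only the 2 groups compared. With a library left out there were 1588 to 3839 calls at KO day 4 against control, 0 to 345 at KO day 3 against control and 648 to 1802 between the days. Same-numbered libraries of different groups did not deviate together (9 correlations from -0.06 to 0.10), so the numbers are not taken as pairs. With the replicate block 9 genes were called at KO day 3 against control, 2680 at KO day 4 against control and 1537 between the days, and no call on the 8 genes changed. The cause of these shifts was not tested. Ccn2 had 0 to 11 reads in a library and Anxa1 0 to 55.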
